A study of Mus musculus with 6 samples.

Results

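The 30 genes described here mark the oligodendrocyte lineage, from its dividing precursors to the cells that wrap axons in myelin. They were taken from the deposited expression table by the Ensembl identifiers that map to their symbols. The symbols are Pdgfra, Cspg4, Olig1, Olig2, Sox10, Sox8, Nkx2-2, Nkx6-2, Myrf, Bcas1, Gpr17, Enpp6, Mbp, Mog, Mag, Mobp, Cnp, Mal, Cldn11, Opalin, Ermn, Tspan2, Ugt8a, Fa2h, Aspa, Trf, Lpar1, Erbb3, Gpr37 and Gjc3. All 30 were found among the 22322 genes of the table, and all 30 passed the filter on low counts that left 14188 genes for testing. They lie on 15 chromosomes. The samples were the arcuate nucleus (ARC) of male mice, a hypothalamic nucleus with neurons that control feeding and the pulsatile release of luteinising hormone, cut from frozen brain sections by laser capture microdissection (LCM) and sequenced as poly(A) RNA. Mice received a normal-chow diet (NCD) with 16.5% fat or a high-fat diet (HFD) with 60% fat for 16 weeks from 4 weeks of age, the second being the diet-induced obesity (DIO) model of the study. The study compared 3 libraries of each diet, and they are named NCD1, NCD2, NCD3, HFD1, HFD2 and HFD3. The study placed the cut over the area rich in Kiss1 neurons, located in Kiss1-Cre mice crossed to an R26R-EYFP reporter, and the labels give no genotype for the sequenced animals. Total counts were 15925648, 9937632 and 6882449 in NCD1, NCD2 and NCD3 and 8024664, 10479778 and 5171381 in HFD1, HFD2 and HFD3. Nothing in the labels says whether a library is 1 mouse or a pool, so p-values measure the spread between these 3 libraries of a diet.

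Oligodendrocytes arise from precursors that carry the receptor for platelet-derived growth factor on their surface, stop dividing, pass through a short newly formed stage and then make myelin, a stack of membrane rich in galactolipids and in a few very abundant proteins. Transcription factors of the SOX, OLIG and NKX families keep the lineage, and MYRF drives the myelin genes at the last step. The ARC lies beside the median eminence, where precursors and newly formed oligodendrocytes are known to be frequent in adult mice.

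The HFD libraries had lower levels of Ugt8a, Opalin, Erbb3, Gpr37 and Nkx6-2, by a fitted 1.51- to 1.85-fold. Of the 10 genes for myelin and paranodal proteins, Opalin was at a log2 fold change of -0.88, Cldn11, Mog, Mag and Ermn were between -0.34 and -0.21, and Mal, Cnp, Tspan2, Mbp and Mobp were between -0.07 and 0.10. Levels are given as CPM, a gene's share of a library's counts after scaling by the trimmed mean of M-values (TMM). In the quasi-likelihood test of edgeR, 5 of the 30 genes were lower in HFD at an unadjusted p under 0.05 and 0 were higher. Over all genes tested the shares were 1.09% lower and 1.21% higher. The same 5 genes passed the threshold of the study's methods, which adds a fold change above 1.5, and 0.888% of all genes tested did so in that direction. None of the 30 passed an adjusted p under 0.05 in edgeR, DESeq2 or limma, the lowest edgeR adjusted p being 0.999. Of the 14188 genes tested, 8 or 0.0564% passed in edgeR. At an unadjusted p under 0.05, DESeq2 gave 5 of the 30 lower, against 0.869% of all genes, and limma on log2(FPKM + 1) gave 4, against 0.927%.

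The fitted log2 fold change was below 0 in 26 of the 30 genes and in 49.5% of all genes tested. Its median over the 30 genes was -0.26, with single values from -0.88 to 0.10, and the median of all genes was 0.00. The median deviation of the 30 genes had a standard deviation between replicates of 0.26 in the diet where it was larger, as large as that difference. In 5 genes, namely Olig2, Sox10, Nkx6-2, Ugt8a and Erbb3, all 3 HFD values lay below all 3 NCD values, and 0 genes showed the reverse. Of all genes tested, 3.24% were separated in that direction. An exact two-sided permutation test of 3 against 3 samples cannot go below p = 0.1. In whole tissue, fewer oligodendrocytes and less of an RNA per oligodendrocyte cannot be told apart.

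**Figure D1:**
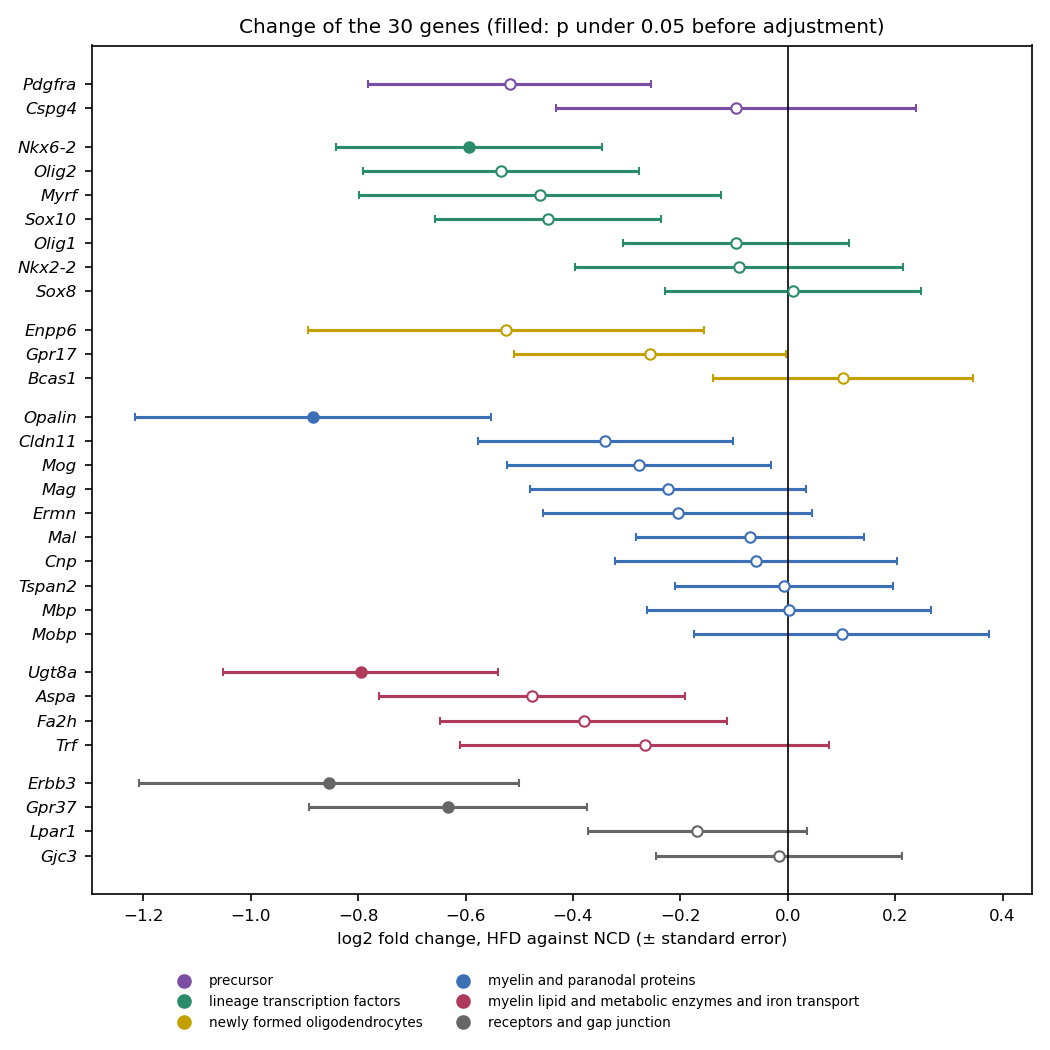
Fitted log2 fold change of each of the 30 genes in HFD against NCD (points) with its standard error (bars), grouped by role, n = 3 libraries per diet. Filled points have an unadjusted p under 0.05. Points run from -0.88 for Opalin to 0.10 for Mobp and Bcas1, and the 4 genes right of 0 are Sox8, Bcas1, Mbp and Mobp.

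Levels between genes were compared as FPKM, the fragments of a gene divided by its length in kilobases and by sequencing depth. Mbp, which encodes myelin basic protein, averaged 887 FPKM over the 6 libraries, Mobp averaged 251 FPKM and Cnp averaged 131 FPKM. The next were Trf at 73.4 FPKM and Olig1 at 51.8 FPKM, and 12 of the 30 genes were under 10 FPKM, down to Enpp6 at 1.40 FPKM and Erbb3 at 0.75 FPKM. In CPM, Mbp alone made up 41.8% to 48.0% of the summed level of the 30 genes in a library, and Mbp, Mobp and Cnp together made up 64.8% to 72.1%. The Schwann cell genes used to check for peripheral myelin were near 0. They summed to 1.08 to 4.70 CPM in a library, most of it from Ncmap, the only one tested, with a log2 fold change of 0.21 ± 0.55. Markers of the ARC were present, with Pomc averaging 667 FPKM, but Kiss1 had no count in NCD1 and HFD1 and was at 2.07 to 7.89 CPM in the other 4 libraries.

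The libraries differed among themselves within each diet. The summed level of the 30 genes was 3581, 5008 and 3383 CPM in NCD1, NCD2 and NCD3 and 3079, 4758 and 3586 CPM in HFD1, HFD2 and HFD3. NCD2 and HFD2 were thus high and the other 4 libraries lay close together, with full overlap between the diets. The NCD mean of 3991 ± 886 CPM and the HFD mean of 3808 ± 861 CPM (SD, n = 3) differed by -0.07 on the log2 scale. The standard deviation between replicates was 0.32 on that scale in the diet where it was larger. Without the 3 most abundant genes the summed means were 1344 CPM in NCD and 1129 CPM in HFD. NCD2 had the highest level of all 6 libraries in 19 of the 30 genes and the lowest in 0, and within the diets NCD2 led in 23 genes and HFD2 in 20. HFD3 was lowest in 11 genes and HFD1 in 9. HFD3 also had the fewest counts and NCD1 the most.

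**Figure D2:**
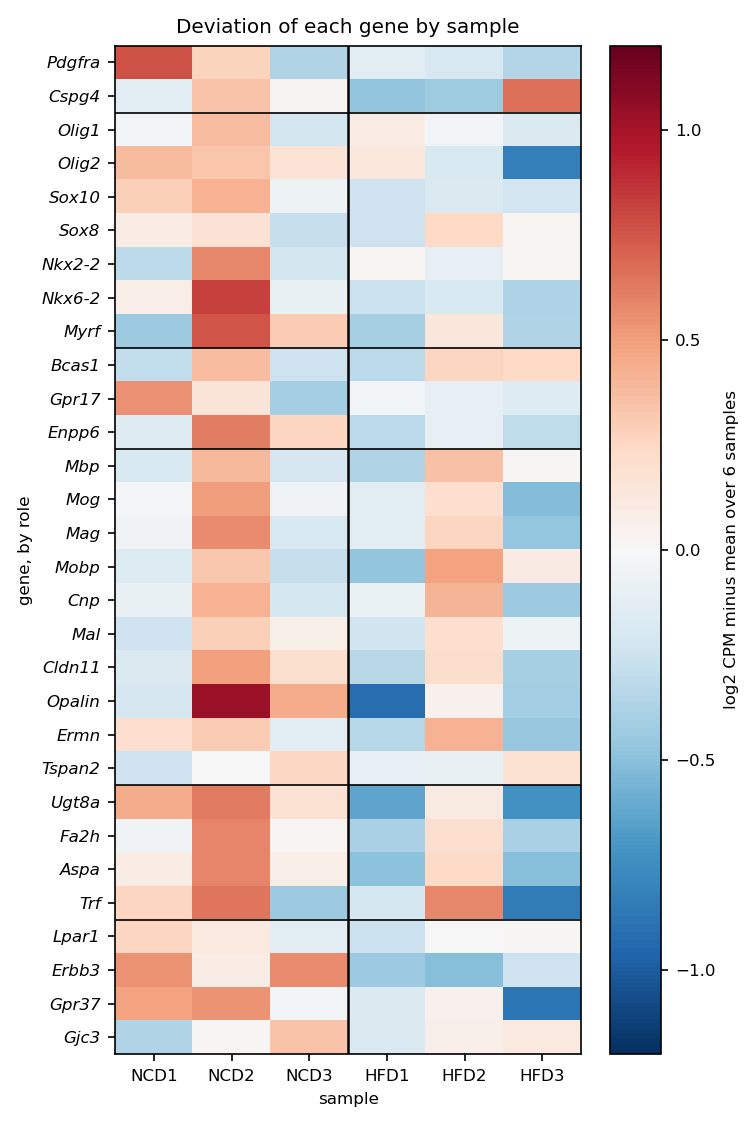
Level of each of the 30 genes in each library as log2 CPM minus the gene's mean over the 6 libraries (colour, red above and blue below), with genes in rows by role and libraries in columns. The NCD2 column is red in nearly every row, HFD2 is red in most myelin protein rows, and the rows of Ugt8a, Fa2h and Aspa are blue in HFD1 and HFD3.

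Among precursor genes, Pdgfra encodes the platelet-derived growth factor receptor alpha and Cspg4 encodes a surface proteoglycan that precursors share with pericytes. Pdgfra was at 67.1, 47.7 and 30.7 CPM in NCD1, NCD2 and NCD3 and at 36.3, 34.7 and 31.0 CPM in HFD1, HFD2 and HFD3. The NCD libraries spanned 2.19-fold, while the HFD libraries lay together at the NCD low end, so that the diets overlapped at NCD3. The log2 fold change of Pdgfra was -0.52 ± 0.26 (SE; 95% interval -1.09 to 0.05, edgeR adjusted p = 0.999). It was -0.22 without NCD1, -0.75 without NCD3 and -0.19 with log2 total count as a covariate. Cspg4 was at 10.5 to 14.6 CPM in NCD and at 8.19, 8.47 and 18.2 CPM in HFD1, HFD2 and HFD3. HFD3 was the highest of all and the other HFD libraries were the lowest. Of 15 further genes of precursors and committed cells, 5 had a log2 fold change below 0 and 10 above, with a median of 0.03, and none had an unadjusted p under 0.05 in edgeR. The largest differences among them were those of Bmp4, a bone morphogenetic protein ligand, at 0.64 ± 0.59, and Kif19a, a kinesin, at 0.50 ± 0.51 (log2 fold change ± SE), neither exceeding its error by much.

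The lineage transcription factors included 3 of the 5 genes whose diets did not overlap. Olig2, a basic helix-loop-helix factor needed to form the lineage, was at 27.5, 26.6 and 23.7 CPM in NCD1, NCD2 and NCD3 and at 23.1, 18.6 and 11.8 CPM in HFD1, HFD2 and HFD3. NCD3 and HFD1 almost met and HFD3 was far below the rest. Sox10, an HMG box factor kept from precursor to myelinating cell, was at 35.0, 38.2 and 27.4 CPM in NCD and at 24.1, 25.4 and 24.4 CPM in HFD, in the same order of libraries. The 3 HFD values lay within 1.05-fold of each other, just under the lowest NCD value. The log2 fold changes were -0.53 ± 0.26 for Olig2 (95% interval -1.09 to 0.02) and -0.45 ± 0.21 for Sox10 (95% interval -0.90 to 0.01), with edgeR adjusted p = 0.999 for both. That of Olig2 was -0.32 without HFD3 and -0.76 without HFD1.

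Nkx6-2, a homeobox factor of maturing oligodendrocytes, was at 50.3, 84.2 and 44.8 CPM in NCD and at 39.9, 42.0 and 36.8 CPM in HFD. NCD2 stood alone at the top and the other NCD libraries were little above the HFD ones. Its log2 fold change was -0.59 ± 0.25 (95% interval -1.13 to -0.06, edgeR adjusted p = 0.999), a fitted 1.51-fold lower level. Its unadjusted edgeR p was over 0.05 without NCD2, where the log2 fold change was -0.27. The same held without HFD1 and without HFD3, where the log2 fold change was -0.60 and -0.55. Nkx6-2 lies on chromosome 7 at 139579376 to 139582797 (GRCm38, minus strand), and 246 of its 1907 exon bases are shared with Inpp5a on the other strand. Inpp5a, a phosphatase gene, had a log2 fold change of 0.14 ± 0.31, and whether counting used strand is not given in the sources used here. Myrf, which encodes the membrane-bound regulator of myelin genes, was at 7.46, 17.3 and 12.6 CPM in NCD and at 7.70, 11.2 and 7.89 CPM in HFD, with NCD1 the lowest of all. The other factors of the list differed less. Log2 fold changes were -0.10 for Olig1, -0.09 for Nkx2-2 and 0.01 for Sox8, all smaller than their standard errors of 0.21 to 0.31.

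The newly formed stage was represented by Bcas1, Gpr17 and Enpp6. Enpp6, a choline-specific phosphodiesterase, was at 3.79, 6.61 and 5.11 CPM in NCD and at 3.35, 3.94 and 3.38 CPM in HFD. Among the NCD libraries only NCD1 was within the HFD range, and the log2 fold change was -0.52 ± 0.37 (95% interval -1.32 to 0.28) from 18 to 65 counts per library. Gpr17, a receptor that restrains maturation, was at 35.1, 26.6 and 18.03 CPM in NCD and at 23.3, 22.4 and 21.4 CPM in HFD. NCD1 was the highest and NCD3 the lowest library, on either side of the HFD group. It shares 188 of its 5195 exon bases with Lims2 on the other strand, which had 748 counts against 1494. Bcas1, which marks cells in the course of myelination, was at 68.4, 109 and 70.9 CPM in NCD and at 67.0, 101 and 99.0 CPM in HFD, with a log2 fold change of 0.10 ± 0.24. Its groups overlapped fully.

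Of the 10 genes for myelin and paranodal proteins, 8 had a log2 fold change below 0, and Opalin alone had an unadjusted p under 0.05. Mbp was at 1498, 2231 and 1476 CPM in NCD and at 1324, 2169 and 1722 CPM in HFD. NCD2 and HFD2 were the 2 high libraries, one of each diet, and the log2 fold change was 0.00 with a 95% interval of -0.57 to 0.58. Mobp, a basic protein of the same compact membrane, was at 538, 753 and 497 CPM in NCD and at 433, 841 and 642 CPM in HFD, with a log2 fold change of 0.10 and a 95% interval of -0.50 to 0.70. Cnp, the cyclic nucleotide phosphodiesterase of non-compact myelin, was at 284, 402 and 261 CPM in NCD and at 285, 399 and 223 CPM in HFD. It shares 154 of its 3639 exon bases with Dnajc7 on the other strand, which had 7413 counts over the 6 libraries against 17946 for Cnp. NCD2 and HFD2 were again high, and its 95% interval was -0.63 to 0.51.

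Mal and Tspan2, membrane proteins of the myelin sheath, had log2 fold changes of -0.07 and -0.01. Mog and Mag, surface proteins on the outer and the axon-facing side of the sheath, gave -0.28 ± 0.25 and -0.22 ± 0.26. Ermn, a cytoskeletal protein of the sheath, gave -0.21 ± 0.25. Cldn11, the claudin of tight junctions between myelin layers, was at 73.0, 116 and 94.4 CPM in NCD and at 65.4, 95.6 and 62.6 CPM in HFD. HFD2 reached the NCD range and the other HFD libraries lay below it, and the log2 fold change was -0.34 ± 0.24 (95% interval -0.86 to 0.18).

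Opalin, a glycosylated membrane protein of central myelin found in the inner and paranodal loops, had the lowest log2 fold change of the 30 genes. It was at 18.2, 43.4 and 28.7 CPM in NCD and at 11.05, 21.8 and 15.8 CPM in HFD. NCD2 was highest and HFD1 lowest, and HFD2 exceeded NCD1, so the diets overlapped. The log2 fold change was -0.88 ± 0.33 (95% interval -1.60 to -0.16, edgeR adjusted p = 0.999), with an NCD mean of 30.1 ± 12.7 CPM and an HFD mean of 16.2 ± 5.37 CPM (SD, n = 3). Its unadjusted p was over 0.05 without NCD2, where the log2 fold change was -0.52, without HFD1 and without HFD3. Opalin lies on chromosome 19 at 41061710 to 41077113 (GRCm38, minus strand). Its promoter and that of Ugt8a are shown because these had the 2 lowest unadjusted edgeR p of the genes with a RefSeq window. Among the 4 genes lower at an unadjusted p under 0.05 that had a RefSeq window, only that of Opalin held motifs of lineage factors. The window covers chr19:41077064-41077363 on the minus strand, from 250 bases before to 50 after the RefSeq start (GRCm38.p6), with matches in capitals.
Opalin promoter: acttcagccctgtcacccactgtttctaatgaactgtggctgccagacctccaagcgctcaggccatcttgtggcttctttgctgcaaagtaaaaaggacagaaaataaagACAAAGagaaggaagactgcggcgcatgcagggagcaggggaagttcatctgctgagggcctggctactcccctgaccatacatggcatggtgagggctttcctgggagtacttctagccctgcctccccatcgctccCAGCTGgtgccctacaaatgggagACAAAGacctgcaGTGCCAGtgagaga
The letters ACAAAG, bound by SOX factors, began at base -139 and at base 24 from the start, CAGCTG, an E-box bound by OLIG2, began at base -1, and CTGGCAC, the MYRF motif, was found on the opposite strand from base 37. Both strands were searched.

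Ugt8a joins galactose to ceramide and so makes the galactolipid of myelin, and it had the lowest p of the 30 genes. Its level was 41.2, 46.7 and 34.4 CPM in NCD1, NCD2 and NCD3 and 19.4, 32.5 and 18.2 CPM in HFD1, HFD2 and HFD3. Every HFD library lay below every NCD library, HFD2 being close to NCD3. The log2 fold change was -0.80 ± 0.26 (95% interval -1.35 to -0.24, edgeR adjusted p = 0.999), from an NCD mean of 40.8 ± 6.14 CPM and an HFD mean of 23.4 ± 7.93 CPM (SD, n = 3), and counts of 97 to 685 per library. Its unadjusted p stayed under 0.05 when any 1 library was left out. Ugt8a lies on chromosome 3 at 125865271 to 125938619 (GRCm38, minus strand). Its promoter, at chr3:125938603-125938902 on the minus strand, is printed by the same rule as that of Opalin.
Ugt8a promoter: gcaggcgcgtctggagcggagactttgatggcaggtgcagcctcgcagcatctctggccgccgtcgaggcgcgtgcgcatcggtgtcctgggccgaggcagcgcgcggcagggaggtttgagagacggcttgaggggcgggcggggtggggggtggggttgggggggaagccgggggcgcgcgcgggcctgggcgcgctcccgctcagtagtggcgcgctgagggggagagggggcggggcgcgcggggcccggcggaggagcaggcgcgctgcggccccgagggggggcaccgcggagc
It held none of the 3 motifs, 78.3% of its bases were G or C and it had 40 CpG dinucleotides, against 54.3% and 4 in the Opalin window.

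A RefSeq promoter window was at hand for 21 of the 30 genes, in 26 windows because some genes have several starts. The MYRF letters were in 5 of the 26 windows (19.2%), belonging to Cnp, Lpar1, Mag and Opalin, and in 5.01% of all 32851 windows. ACAAAG was in 8 windows (30.8%), of Cnp, Lpar1, Mag, Mobp, Opalin and Tspan2, and in 18.7% of all windows. CAGCTG was in 2 windows (7.69%), of Aspa and Opalin, and in 16.3% of all. Both Mag windows with a match overlap and share the same letters. Windows of Gpr37 and Nkx6-2 held none of the 3.

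The other enzymes and the iron carrier of the list were also lower in mean, without passing p under 0.05. Fa2h, which adds the hydroxyl group to myelin fatty acids, was at 17.98, 27.9 and 18.8 CPM in NCD and at 14.0, 21.3 and 14.1 CPM in HFD. Aspa, which frees acetate from N-acetylaspartate for lipid synthesis, was at 15.5, 22.0 and 15.3 CPM in NCD and at 10.3, 17.2 and 10.1 CPM in HFD. In both genes NCD2 was the highest library and HFD2 lay above NCD1 and NCD3. Their log2 fold changes were -0.38 ± 0.27 for Fa2h and -0.48 ± 0.28 for Aspa. For Fa2h and Aspa they were -0.15 and -0.29 without NCD2, and -0.62 and -0.78 without HFD2. Trf, which encodes the iron carrier transferrin, was at 209, 273 and 129 CPM in NCD and at 151, 260 and 97.7 CPM in HFD, spanning 2.66-fold within HFD alone.

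Receptors of the lineage included Erbb3 and Gpr37, both at an unadjusted p under 0.05, and Lpar1. Erbb3, a receptor for neuregulins, was at 6.31, 4.58 and 6.46 CPM in NCD and at 3.10, 2.95 and 3.57 CPM in HFD. The diets did not overlap, and NCD2, high in most of the other genes, was the lowest NCD library here. The log2 fold change was -0.85 ± 0.35 (95% interval -1.62 to -0.09, edgeR adjusted p = 0.999) from 19 to 105 counts per library, and limma gave -0.35 on log2(FPKM + 1) and -0.73 on log2(FPKM + 0.1), both short of an unadjusted p under 0.05. At a mean of 0.75 FPKM, a pseudocount of 1 understates the fold. The unadjusted edgeR p was also over 0.05 in 4 of the 6 fits with 1 library left out, without NCD1, NCD3, HFD1 or HFD2. In those 4 fits the log2 fold change of Erbb3 lay between -0.83 and -0.77. Gpr37, a receptor of maturing oligodendrocytes whose proposed ligands include prosaposin, was at 62.4, 64.9 and 43.4 CPM in NCD and at 39.4, 46.1 and 24.2 CPM in HFD. HFD2 lay above NCD3 and HFD3 was far below all others. Erbb3 lies on chromosome 10 at 128567523 to 128589652 and Gpr37 on chromosome 6 at 25665878 to 25690729 (GRCm38, minus strand for both). The log2 fold change of Gpr37 was -0.63 ± 0.26 (95% interval -1.19 to -0.07, edgeR adjusted p = 0.999). Its unadjusted p was over 0.05 without NCD1, NCD2, HFD1 or HFD3, and the log2 fold change was -0.42 without HFD3. Lpar1, a lysophosphatidic acid receptor, and Gjc3, the connexin of an oligodendrocyte gap junction, gave -0.17 ± 0.20 and -0.02 ± 0.23 with overlapping diets.

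**Figure D3:**
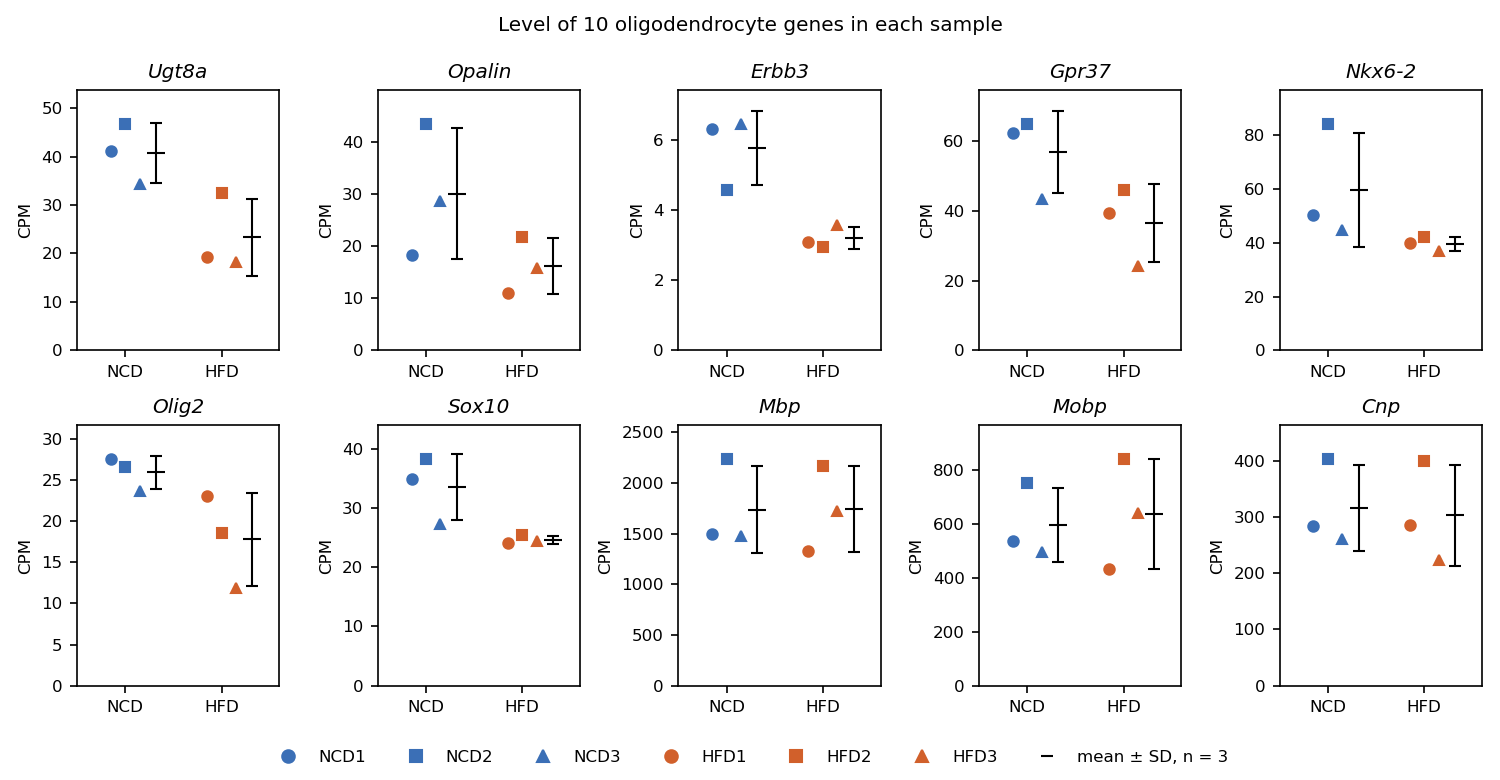
Level in CPM of 10 of the genes in each library (points, with the symbol shape giving the replicate number) and mean ± SD per diet (bars, n = 3), on linear axes from 0. The upper row holds the 5 genes with an unadjusted p under 0.05. In the lower row Olig2 and Sox10 do not overlap between diets, and NCD2 and HFD2 lie highest in Mbp, Mobp and Cnp.

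Because NCD2 and HFD2 were high in most myelin genes, each gene was also divided by Mbp in the same library, a comparison chosen after the values were seen. Ugt8a was 2.75%, 2.09% and 2.33% of Mbp CPM in NCD1, NCD2 and NCD3 and 1.46%, 1.498% and 1.06% in HFD1, HFD2 and HFD3. Fa2h was 1.2003%, 1.25% and 1.27% in NCD and 1.06%, 0.980% and 0.819% in HFD, and Aspa was 1.04%, 0.985% and 1.04% in NCD and 0.779%, 0.794% and 0.589% in HFD. On this scale the diets no longer overlapped for Fa2h and Aspa, and the gap for Ugt8a was wider. Opalin was 1.22%, 1.95% and 1.94% in NCD and 0.835%, 1.003% and 0.917% in HFD, again without overlap. Nkx6-2 was separated too, narrowly, with 3.03% in NCD3 and 3.01% in HFD1. Altogether 5 of the 29 genes other than Mbp were lower in HFD without overlap and 0 were higher. Of all 14187 genes tested other than Mbp, 126 or 0.888% were lower and 106 higher. Mbp is itself a gene of the list and shares the high levels of NCD2 and HFD2. Division by Mbp takes that swing out of genes that share it and adds it to genes that do not. The share of 0.888% is therefore not a like background for these 5 genes, and without the division it was 3.24%. Olig2, Sox10 and Erbb3 overlapped on this scale. Mobp was 32.7% to 38.8% of Mbp in all 6 libraries.

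**Figure D4:**
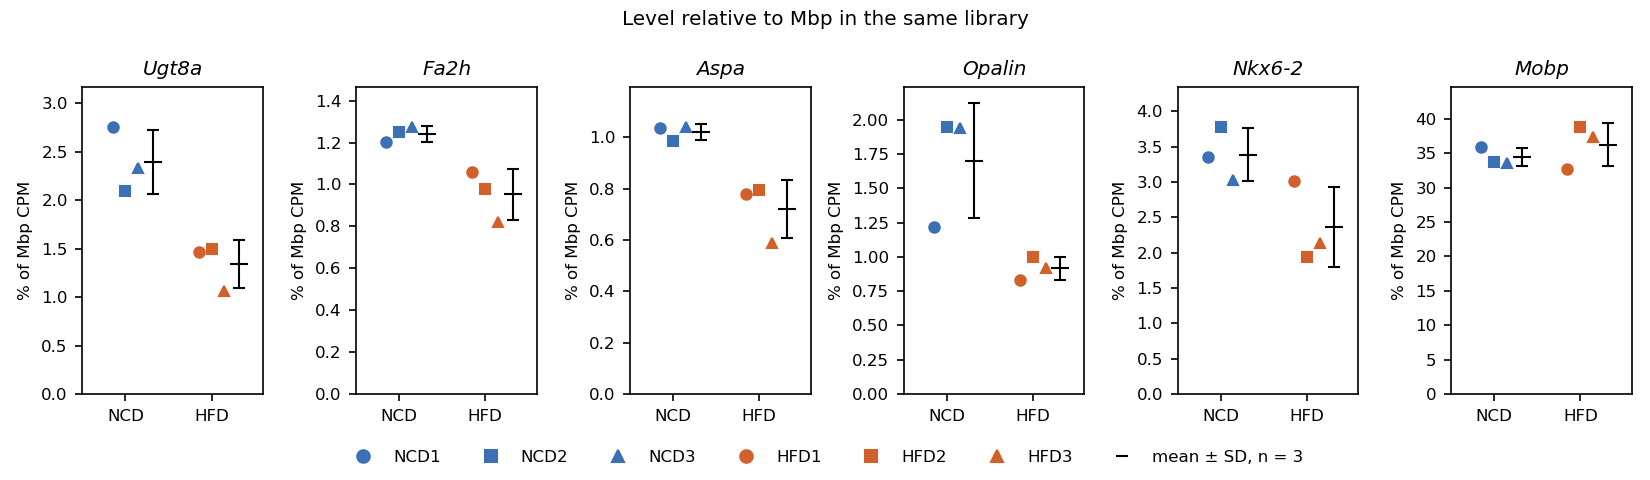
Level of 6 genes as a percentage of Mbp CPM in the same library (points, with the symbol shape giving the replicate number) and mean ± SD per diet (bars, n = 3), on linear axes from 0. Ugt8a, Fa2h, Aspa, Opalin and Nkx6-2 do not overlap between diets, and Mobp does.

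A wider list of genes known from mature oligodendrocytes was read in the same fit. Of these 36 genes 34 were tested, Klk6 and Slc45a3 being too low, and 25 had a log2 fold change below 0 with a median of -0.11. Adamts4, a protease of mature oligodendrocytes, was the only one with an unadjusted p under 0.05 in edgeR, at 11.7, 11.8 and 10.8 CPM in NCD and at 5.09, 10.1 and 4.89 CPM in HFD (log2 fold change -0.75 ± 0.33, edgeR adjusted p = 0.999). HFD2 lay just under the NCD libraries and the other HFD libraries were well below. Pllp, a myelin proteolipid, and Sirt2, a deacetylase of the myelin sheath, were also lower without overlap, at log2 fold changes of -0.47 ± 0.23 and -0.13 ± 0.18. St18, a zinc finger factor, was higher without overlap, at 0.44 ± 0.21.

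The remaining genes of the pathway that Ugt8a serves were counted next. Among 14 genes for galactolipid and very long chain lipid synthesis, 8 were below 0 and 6 above with a median of -0.08, and none had an unadjusted p under 0.05 in edgeR. The largest differences were those of the fatty acid elongases Elovl7 at -0.40 ± 0.29 and Elovl1 at -0.25 ± 0.24. Gal3st1, which sulfates the product of Ugt8a, had a log2 fold change of 0.04 ± 0.45, and Cers2, the ceramide synthase for very long chains, gave -0.04 ± 0.21.

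Of 22 genes for signals that act on the lineage, 14 were below 0 with a median of -0.14. Those at an unadjusted p under 0.05 were the growth factor receptors Egfr and Fgfr2, lower in HFD, and the ligand Fgf2, higher. Egfr was at 13.0, 15.5 and 14.4 CPM in NCD and at 6.33, 9.16 and 7.33 CPM in HFD, without overlap (log2 fold change -0.90 ± 0.27, edgeR adjusted p = 0.999). Fgfr2 was at 45.5, 35.8 and 31.9 CPM in NCD and at 22.8, 25.9 and 24.6 CPM in HFD, also without overlap (-0.63 ± 0.21, edgeR adjusted p = 0.999). Fgfr2 is also made by astrocytes. Fgf2 was at 8.90, 8.74 and 12.5 CPM in NCD and at 20.2, 10.7 and 18.4 CPM in HFD (0.72 ± 0.30, edgeR adjusted p = 0.999), with HFD2 inside the NCD range. Of the partners of Erbb3, its co-receptor Erbb2 gave 0.04 ± 0.45 and its ligand Nrg1 gave -0.22 ± 0.26. Psap, which encodes prosaposin, gave -0.08 ± 0.21.

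Genes of neighbouring nuclei differed between the same libraries. Summed over 7 genes they were at 3471, 6678 and 3341 CPM in NCD1, NCD2 and NCD3 and at 1823, 3518 and 1566 CPM in HFD1, HFD2 and HFD3, with NCD2 above the rest and HFD2 the highest of its diet. In NCD2 most of the sum was Avp, and in HFD2 the largest share was Pmch, a peptide gene of the lateral hypothalamus, at 1915 CPM against 271 to 716 CPM in the other 5 libraries. The most abundant of them was Avp, which encodes vasopressin, at 3475 FPKM. It was at 2379, 4883 and 1959 CPM in NCD and at 1047, 943 and 829 CPM in HFD (log2 fold change -1.71 ± 0.33, edgeR adjusted p = 0.194), with no peak in HFD2. Oxt, which encodes oxytocin, was at 516, 914 and 571 CPM in NCD and at 261, 446 and 390 CPM in HFD. Of the 7 genes, 2 were lower at an unadjusted p under 0.05, and Nr5a1 and Fezf1, markers of the ventromedial nucleus, gave -0.19 ± 0.36 and 0.02 ± 0.27. The part that the position of the cut had in the levels of the 30 oligodendrocyte genes was not tested.

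Markers of other cells were as follows. Neuron genes had a median log2 fold change of 0.04 over 8 genes, with 0 of 8 at an unadjusted p under 0.05, and the largest differences were 0.22 ± 0.20 for Elavl4, an RNA-binding protein of neurons, and -0.22 ± 0.24 for Snap25, a synaptic vesicle fusion protein and the most abundant at 572 FPKM. Astrocyte genes had a median of -0.07 over 8 genes and 1 at an unadjusted p under 0.05, the filament gene Gfap, higher at 0.88 ± 0.35 (edgeR adjusted p = 0.999), and the most abundant was Aldoc at 728 FPKM. Microglia genes had a median of 0.03 over 8 genes and 1 higher, the complement gene C1qa at 0.46 ± 0.21 (edgeR adjusted p = 0.999). In summed level, HFD2 and NCD2 were the highest libraries for neuron genes, at 3691 and 3499 CPM against 2803 to 3258 CPM in the others, as they were for the oligodendrocyte genes. HFD1 was the highest for astrocyte genes at 5047 CPM, and NCD3 the lowest for microglia genes at 263 CPM.

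Among vascular cells, the 6 endothelial genes had a median log2 fold change of 0.00, with the junction gene Cldn5 lower at -0.48 ± 0.21 and Ly6c1 higher at 0.81 ± 0.23 (edgeR adjusted p = 0.999 for both), and Ly6c1 was the most abundant at 50.7 FPKM. Pericyte genes had a median of -0.07 over the 5 of 6 genes tested, Anpep being too low, and the most abundant was Vtn at 39.6 FPKM. None was at an unadjusted p under 0.05 in edgeR, and the largest differences were those of Kcnj8 and Abcc9, at -0.16 each. Vascular fibroblast genes summed to 127 CPM in HFD3 against 40.9 to 57.1 CPM in the other 5 libraries, with Dcn, a matrix proteoglycan, the most abundant at 23.2 FPKM, and Dcn and Lum gave log2 fold changes of 0.65 ± 0.36 and 0.51 ± 0.53. Pdgfra and Cspg4 are also made by fibroblasts and pericytes respectively. In HFD3, Pdgfra was at 31.0 CPM, next to the lowest of the 6 libraries, and the pericyte genes summed to 191 CPM, the lowest of the HFD libraries, while Cspg4 was highest there. Tanycyte genes, of the cells that line the third ventricle, had a log2 fold change above 0 in 6 of 6, with a median of 0.36, and summed to 317 CPM in HFD3 against 122 to 204 CPM elsewhere, Col25a1 being the most abundant at 15.2 FPKM. Crym at 0.89 ± 0.30 and Col23a1 at 0.91 ± 0.40 were at an unadjusted p under 0.05 (edgeR adjusted p = 0.999 for both). Of 7 ARC neuron genes, Tac2, which encodes neurokinin B, was higher at 0.60 ± 0.27 (edgeR adjusted p = 0.999), and the median was 0.42. The part of these lists in the result for the 30 genes was not tested.

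**Figure D5:**
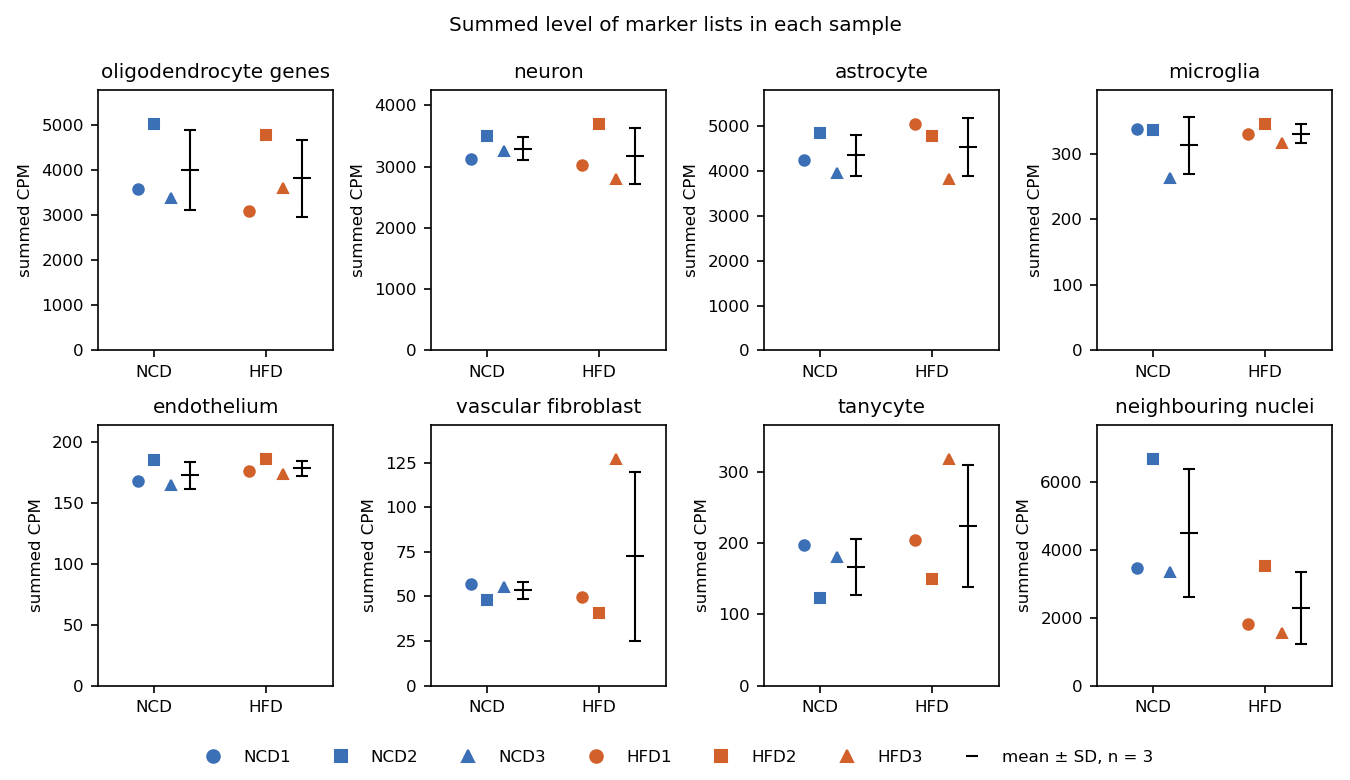
Summed CPM of the 30 oligodendrocyte genes and of 7 marker lists in each library (points, with the symbol shape giving the replicate number) and mean ± SD per diet (bars, n = 3), on linear axes from 0. NCD2 and HFD2 are the high libraries for the oligodendrocyte genes, NCD2 is the high library for the neighbouring nuclei, and HFD3 stands above the rest for vascular fibroblast and tanycyte genes.

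The number of the 30 genes at an unadjusted p under 0.05 depended on single libraries. It was 2 without NCD2, namely Ugt8a and Erbb3, against 0.84% of all genes lower in that fit, and the same 2 without HFD3, against 1.27%. It was 2 without HFD1, namely Ugt8a and Olig2, against 0.647%, and 8 without HFD2, namely Nkx6-2, Cldn11, Opalin, Ermn, Ugt8a, Aspa, Trf and Gpr37, against 1.85%. It was 5 without NCD1, namely Nkx6-2, Myrf, Cldn11, Opalin and Ugt8a, against 0.813%, and 6 without NCD3, namely Pdgfra, Sox10, Nkx6-2, Opalin, Ugt8a and Gpr37, against 3.11%. All genes counted were lower in HFD. Ugt8a was the only gene of the 30 present in each of the 6 counts.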

How the data were processed

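Libraries were 3 NCD and 3 HFD samples of LCM-dissected ARC, mapped to diets by the sample titles (C or H) and by group means in the table that equalled the means of the C and H columns within 0.001 FPKM. Per the study's methods, the authors compared reads with a mouse ribosome database in bowtie2, aligned to the mouse genome (mm10 per the labels) with HISAT2, and quantified with StringTie and RSEM. The deposited table holds whole-number read counts per gene and FPKM for each sample, and the authors' FPKM divides by gene length and depth. It also holds the authors' own fold changes, p-values and FDR, which were not used. Symbols were matched to the Ensembl identifiers of the table from a separate gene name reference, for 22267 of 22322 genes. No count was seen for 4145 genes. Whether counting used strand is not given in the sources used here.

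Counts were fitted with edgeR 4.0.16 (TMM, filterByExpr, quasi-likelihood test, R 4.3.3) with diet as the only term, and p-values were adjusted by Benjamini-Hochberg over 14188 genes. Overlap between diets was read on CPM without a logarithm. Deviations of genes by library were taken on log2 CPM with a prior count of 2. DESeq2 1.42.0, limma 3.58.1 on log2(FPKM + 1) or log2(FPKM + 0.1), other scalings, filters, covariates and left-out libraries were alternatives. Each test was tested on simulated data. The floor of 3 counts was 0.188 to 0.580 CPM, and counts per library set the precision. Positions are from GENCODE on GRCm38 and promoters from RefSeq GRCm38.p6. All 30 genes were named. From each other list, genes at an unadjusted p under 0.05 were named, or else the 2 with the largest difference, with the most abundant gene for marker lists, of which 1 is not reported here. Pllp, Sirt2, St18, Gal3st1, Cers2, Erbb2, Nrg1, Psap, Nr5a1, Fezf1, Pmch, Kiss1, Inpp5a, Dnajc7 and Lims2 were named after their values were seen. The 30 genes and all lists were chosen with earlier results of these data known.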

Additional observations from a re-analysis of the deposited data

How the results depend on the processing

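With RLE size factors, library totals alone, TMM without mitochondrially encoded genes, DESeq2 or genes with at least 1 count, 5 of the 30 genes stayed lower at an unadjusted p under 0.05, and 4 with a mean of at least 50 counts (28 of the 30 tested) or with either limma fit, against 0.869% to 1.29% of all genes in those fits. With log2 total count as a covariate it was 5, against 1.66%. None passed adjustment in any of the 16 alternatives. The count past the study's threshold was 3 with limma on log2(FPKM + 1) and 3 with log2 total count as a covariate. The share of all genes past that threshold was counted only in the edgeR fit with diet as the only term (0.888%). These counts therefore have no share of their own to be read against. Leaving out each library in turn moved the count at p under 0.05 between 2 and 8. The count past the study's threshold moved between 2 and 6, and the share of all genes past it was not counted in those fits. The genes without overlap moved between 5 and 13, against 5.28% to 12% of all genes in those fits, in which 2 libraries face 3. In the fit that gave 13 the share was 9.59%. The median log2 fold change moved between -0.47 and -0.13, and the log2 ratio of the summed level between -0.26 and 0.13. Ugt8a kept p under 0.05 in all 16, while Opalin and Nkx6-2 lost it in 3, without NCD2, HFD1 or HFD3, Gpr37 in 4, without NCD1, NCD2, HFD1 or HFD3, and Erbb3 in both limma fits and 4 of the 6 left-out fits. The cause was not tested.

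Some genes without an unadjusted p under 0.05 changed sign. Tspan2 was at 0.00193 with library totals and at 0.00267 with a mean of at least 50 counts. Mbp was at -0.00607 with at least 1 count and at -0.0101 with limma at either pseudocount, and Gjc3 at 5.8e-05 with log2(FPKM + 0.1). With the total count as a covariate, Cnp was at 0.0776 and Trf, at -0.27 without it, at 0.0431.
Leaving out single libraries turned the sign of 13 genes, with ranges of -0.0312 to 0.35 for Bcas1, -0.19 to 0.22 for Mbp, -0.56 to 0.10 for Cspg4, -0.21 to 0.0855 for Olig1, -0.28 to 0.26 for Nkx2-2, -0.44 to 0.0397 for Mag, -0.31 to 0.15 for Cnp, -0.21 to 0.0630 for Mal, -0.72 to 0.00573 for Trf, -0.12 to 0.13 for Sox8, -0.15 to 0.32 for Mobp, -0.13 to 0.13 for Tspan2 and -0.19 to 0.17 for Gjc3.

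The sample titles number the libraries but do not say that equal numbers are paired. Same-numbered libraries deviated together with correlations over all genes of -0.01, 0.11 and 0.37, not all over 0.1. Of the 6 libraries, 3 correlated best with the one of the same number. With so few libraries these values cannot settle whether a pairing exists, so the fit with replicate number as a block is given as an alternative. With the replicate block, 7 of the 30 genes were lower at an unadjusted p under 0.05 (Pdgfra, Olig2, Nkx6-2, Opalin, Ugt8a, Erbb3 and Gpr37), against 1.73% of all genes. In that fit 4 of the 30 passed the study's threshold, and the share of all genes past it was not counted. None passed adjustment (lowest edgeR adjusted p = 0.354), the median was -0.27, and Tspan2 and Gjc3 were at 0.000898 and 0.00286.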
